A study of Mus musculus with 16 samples.

Results

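The 8 genes described here are ones that many cells switch on within minutes of a stimulus: Egr1, Egr2, Egr3, Nr4a1, Nr4a2, Nr4a3, Ier3 and Arc. They were measured through 16 RNA-seq libraries of the mouse mammary cancer line 6DT1. The genes were taken by symbol from the rows of the count table, which held all 8 among its 25745 genes; 7 of them were among the 14445 genes that passed a filter on low counts, and Nr4a3 did not. The cells, labelled strain FVB/N1, carried an empty vector or a lentivirus made to express CLIC4, a protein of the chloride intracellular channel family, and were given 1 µM H2O2 or left untreated, with lysis after 24 h. The groups, with 4 libraries each, were H2O2-treated cells with the empty vector (libraries 13 to 16), H2O2-treated cells with the CLIC4 lentivirus (5 to 8), untreated cells with the empty vector (9 to 12) and untreated cells with the CLIC4 lentivirus (1 to 4). All are one cell line; the labels describe the empty-vector libraries as CLIC4 knockout and the lentivirus libraries as wild type, and do not say whether a line is 1 clone. Nothing in the labels ties the 4 libraries of a group to separate cultures. The p-values therefore cover the variation among these libraries, part or all of which may be technical.

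Immediate early genes are transcribed without the need for new protein synthesis, through transcription factors that are already bound or are quickly phosphorylated, such as SRF with its ternary complex partners, and CREB. MAP kinase signalling is a main route to them, and their transcripts are short-lived. The Egr genes encode zinc-finger transcription factors that bind GC-rich sites, and their action is curbed by the NAB corepressors. The Nr4a genes encode nuclear receptors that act without a known natural ligand and bind DNA alone or, for Nr4a1 and Nr4a2, with retinoid X receptors. Ier3 encodes a short-lived protein that modulates cell survival and is a target of NF-kB, and Arc encodes a protein best known from neurons, where it is induced by activity and acts at the synapse.

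By GENCODE vM21 (mm10), Egr2 lies at chr10:67535475-67542188, Egr3 at chr14:70077203-70082614, Nr4a1 at chr15:101254269-101274795, Nr4a2 at chr2:57106830-57124003, Nr4a3 at chr4:48045153-48086447, Ier3 at chr17:35821684-35822923 and Arc at chr15:74669083-74672570. Nr4a2 and Arc are on the minus strand and the others on the plus strand, and no annotated gene overlaps any of the 8 on either strand. Their median span was 6.06 kb (1.24 to 41.3 kb), against 23.6 kb over 12234 tested protein-coding genes.

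Bases before the transcription start were available for 5 of the genes from RefSeq (GRCm38.p6). They are shown because the letters of CREB sites recur in the Nr4a windows and stand beside those of an SRF site in Egr2, while Ier3 has an NF-kB match. Each is written 5′ to 3′ on the gene's strand and ends just before the annotated start or, for Nr4a3 and Ier3, at the first exon that GENCODE places before it. Capitals mark the short form of the cAMP response element (TGACG, or CGTCA where it lies on the other strand), the CArG box to which SRF binds (in Egr2) and an NF-kB site (in Ier3). The windows are chr10:67537619-67537868 for Egr2, chr15:101266596-101266845 for Nr4a1, chr2:57124004-57124253 for Nr4a2 (minus strand), chr4:48045055-48045152 for Nr4a3 and chr17:35821463-35821683 for Ier3, with the other 4 on the plus strand. Those of Egr2 and Nr4a1 lie inside the annotated gene, outside its exons, since the annotated gene starts further upstream.
Egr2: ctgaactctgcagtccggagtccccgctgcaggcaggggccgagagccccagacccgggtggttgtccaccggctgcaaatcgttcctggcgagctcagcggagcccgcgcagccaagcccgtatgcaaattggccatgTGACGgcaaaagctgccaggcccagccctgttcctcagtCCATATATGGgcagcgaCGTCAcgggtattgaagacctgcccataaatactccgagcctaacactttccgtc
Nr4a1: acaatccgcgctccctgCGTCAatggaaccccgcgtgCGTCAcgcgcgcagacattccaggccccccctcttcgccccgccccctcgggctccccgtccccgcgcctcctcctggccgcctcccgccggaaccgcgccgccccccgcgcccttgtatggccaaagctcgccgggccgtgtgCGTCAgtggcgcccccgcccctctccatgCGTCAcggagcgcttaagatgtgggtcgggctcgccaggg
Nr4a2: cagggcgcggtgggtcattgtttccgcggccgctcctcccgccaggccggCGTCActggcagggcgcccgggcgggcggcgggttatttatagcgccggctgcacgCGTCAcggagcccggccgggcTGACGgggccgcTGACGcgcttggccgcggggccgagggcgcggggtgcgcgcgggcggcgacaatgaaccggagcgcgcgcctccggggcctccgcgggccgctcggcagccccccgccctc
Nr4a3: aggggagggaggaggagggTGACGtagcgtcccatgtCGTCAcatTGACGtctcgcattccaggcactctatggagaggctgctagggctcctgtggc
Ier3: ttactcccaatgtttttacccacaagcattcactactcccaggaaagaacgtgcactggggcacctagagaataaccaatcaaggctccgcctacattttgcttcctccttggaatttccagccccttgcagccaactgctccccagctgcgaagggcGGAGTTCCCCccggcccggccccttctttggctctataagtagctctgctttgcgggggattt
Over the full 250 bases before the start, Nr4a1, Nr4a2 and Nr4a3 each held 4 such short forms, of which 3 fall in the shorter Nr4a3 window shown. Among 32851 such windows of the RefSeq table, 17.8% held at least 1 short form on either strand and 0.137% held at least 4. Egr2 held 2 short forms and a CArG box, which 1.47% of windows held. Of its 5 listed starts, 4 had a CArG box in their window, and the most upstream one had instead a pair of overlapping NF-kB matches. Ier3 held 1 NF-kB match, found in 7.25% of windows, and 1 ETS core (GGAAG), found in 64.1%. Nr4a1 also held the Egr site GCGGGGGCG, found in 2.57% of windows. Nr4a2 held the letters of a TATA box (TATAAA, 12.4% of windows) on the other strand, at bases -164 to -159 from the start. None of the 5 windows shown held the full cAMP response element TGACGTCA (1.55%), the AP-1 site TGANTCA (6.75%), the Egr site GCGTGGGCG (0.536%) or the NBRE AAAGGTCA of the Nr4a receptors (1.34%). Both strands were searched for every motif. A match is a description of letters, and binding was not measured.

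Total counts per library ran from 47089156 to 61945199. Library 11 was unlike the other untreated libraries with the empty vector: its correlation with libraries 9, 10 and 12 over genes was at most 0.956, while every other pair within a group reached at least 0.9989. The share of mitochondrial ribosomal RNA was 0.635% there and 0.0162% to 0.0385% in the other 15 libraries, and that of all mitochondrial genes was 3.04% there and 1.10% to 3.42% elsewhere. Values are therefore given for all 16 libraries and for the 15 without library 11. Clic4 itself had 41.5, 41.2, 138 and 44.7 CPM (a count scaled to a common library total) in libraries 9 to 12 and 39.5 to 45.1 CPM in H2O2-treated empty-vector cells, against 222 to 258 CPM in the 8 CLIC4 lentivirus libraries. It was thus lower in the empty-vector libraries, as labelled, but not at 0, and library 11 lay between. Of 8 mammary epithelial markers, Krt8, Krt18 and Krt19 reached 1 CPM in every group, while Epcam, Cdh1, Krt5, Krt7 and Krt14 averaged at most 0.117 CPM in the 15 libraries; in library 11 Epcam had 12.9 and Cdh1 1.53 CPM.

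Per length, Ier3 was by far the most abundant of the 8, with a mean of 60.6 FPKM over the 15 libraries, rank 1569 of 25372 genes. Nr4a2 followed with 2.36 and Nr4a1 with 1.06 FPKM. Egr3 averaged 0.802, Arc 0.634 and Egr2 0.609 FPKM; Egr1 was at 0.125 and Nr4a3 at 0.006 FPKM. In most libraries the genes other than Ier3 were thus at low levels. In the following, levels are again CPM scaled by TMM and compare libraries for 1 gene, not genes with each other.

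**Figure D1:**
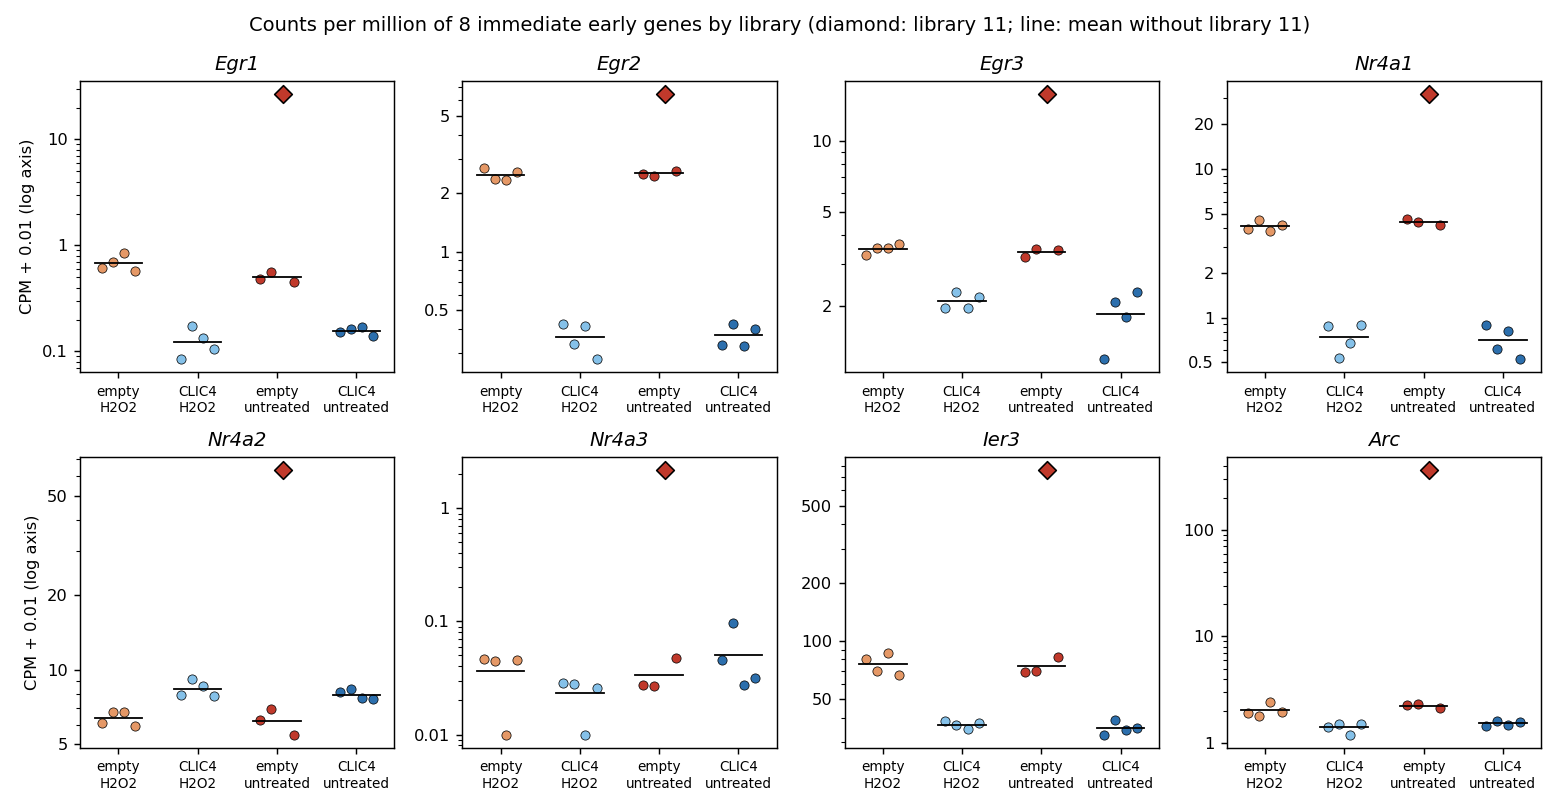
Level of each of the 8 genes in each library, as TMM-scaled CPM plus 0.01 on a log axis, with its own scale per gene. Points are libraries, the diamond is library 11 and lines are group means without it. Library 11 is the highest library in all 8 panels, and the empty-vector libraries lie above the CLIC4 lentivirus libraries for Egr1, Egr2, Egr3, Nr4a1, Ier3 and Arc.

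The first comparison was of the vectors in untreated cells. By edgeR's quasi-likelihood test, 6 of the 7 tested genes were higher in empty-vector than in CLIC4 lentivirus cells with all 16 libraries: Egr1, Egr2, Egr3, Nr4a1, Ier3 and Arc. This stands beside 29% of all 14445 genes called higher and 24.3% called lower at an adjusted p under 0.05. Without library 11 the same 6 were higher and Nr4a2 was lower, beside 37% higher and 37.3% lower of 14602 genes. So 6 of 7 called higher exceeds the share over all genes, but calls were common everywhere in this comparison. The median log2 change of the 7 was 3.27 with 16 libraries (0.026 over all genes) and 1.07 without library 11 (-0.021 over all genes). Whether a lower level reflects fewer cells with the transcript or less of it per cell cannot be told apart in bulk RNA.

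Egr1, the founding member of its family, had 0.476, 0.558, 26.7 and 0.446 CPM in untreated empty-vector libraries 9 to 12, against 0.143, 0.155, 0.159 and 0.129 CPM in untreated CLIC4 libraries 1 to 4. With H2O2 it had 0.598, 0.69, 0.838 and 0.565 CPM in empty-vector libraries 13 to 16, against 0.0753, 0.162, 0.123 and 0.0955 CPM in CLIC4 libraries 5 to 8. The empty-vector libraries lay above the CLIC4 libraries throughout, and library 11 lay far above all others. These levels rest on 24 to 51 reads in the empty-vector libraries other than library 11, which had 1031, and on 4 to 9 reads in CLIC4 libraries. The log2 change in untreated cells was 5.55 with a standard error (SE) of 1.29 (edgeR adjusted p = 0.00244), and 1.73 (SE 0.276, adjusted p = 1.24e-05), a 3.33-fold difference, without library 11. With log2(FPKM + 1) and no filter, a scale that compresses genes this low, it was not called (0.83, limma adjusted p = 0.215).

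Egr2, known for its part in nerve myelination and in lymphocyte tolerance, had the largest log2 change between the vectors of the 7 tested genes once library 11 was left out. Its levels were 2.50, 2.45, 6.44 and 2.58 CPM in untreated empty-vector libraries 9 to 12, against 0.321, 0.413, 0.318 and 0.388 CPM in untreated CLIC4 libraries 1 to 4. With H2O2 they were 2.68, 2.35, 2.33 and 2.56 CPM in empty-vector libraries, against 0.414, 0.324, 0.403 and 0.270 CPM in CLIC4 libraries. Apart from library 11, the empty-vector libraries agreed closely and were well clear of the CLIC4 libraries. Egr2 rose by a log2 change of 3.27 (SE 0.310, edgeR adjusted p = 8.75e-07) with 16 libraries and 2.80 (SE 0.157, adjusted p = 3.35e-12), or 6.96-fold, without library 11.

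Egr3, induced with Egr1 and Egr2 in lymphocytes and neurons, had 3.21, 3.48, 15.8 and 3.44 CPM in untreated empty-vector libraries, against 1.18, 2.06, 1.79 and 2.28 CPM in untreated CLIC4 libraries. Under H2O2 it had 3.26, 3.5, 3.52 and 3.64 CPM in empty-vector libraries, against 1.94, 2.27, 1.95 and 2.16 CPM in CLIC4 libraries. Its groups did not overlap, though the distance between them was smaller than for Egr2, and CLIC4 library 1 was the lowest of all. The log2 change in untreated cells was 1.82 (SE 0.444, edgeR adjusted p = 0.00347) with 16 libraries and 0.89 (SE 0.147, adjusted p = 1.78e-05), or 1.86-fold, without library 11. When only the untreated groups were fitted, library 11 included, Egr3 narrowly missed the threshold (1.83, edgeR adjusted p = 0.0506).

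The Nr4a receptors did not move alike. Nr4a1, also called Nur77, had 4.62, 4.41, 31.9 and 4.17 CPM in untreated empty-vector libraries, against 0.875, 0.602, 0.796 and 0.517 CPM in untreated CLIC4 libraries. In H2O2-treated cells it had 3.95, 4.54, 3.84 and 4.22 CPM with the empty vector, against 0.866, 0.523, 0.666 and 0.875 CPM with the CLIC4 lentivirus. Every empty-vector library thus lay well above every CLIC4 library. Nr4a1 rose by a log2 change of 4.00 (SE 0.626, edgeR adjusted p = 0.000107) with 16 libraries and 2.64 (SE 0.158, adjusted p = 9.18e-12), or 6.25-fold, without library 11.

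Nr4a2, also called Nurr1 and known for its need in midbrain dopamine neurons, was the exception. Untreated empty-vector libraries had 6.24, 6.91, 63.5 and 5.47 CPM, against 8.10, 8.32, 7.67 and 7.58 CPM in untreated CLIC4 libraries. With H2O2 the values were 6.08, 6.71, 6.72 and 5.91 CPM in empty-vector libraries, against 7.89, 9.14, 8.61 and 7.78 CPM in CLIC4 libraries. Leaving library 11 aside, all empty-vector libraries lay below all CLIC4 libraries, while library 11 lay above every one. The log2 change was therefore positive with 16 libraries, at 1.37 (SE 0.622, edgeR adjusted p = 0.0767, not called), and negative without library 11, at -0.35 (SE 0.0843, adjusted p = 0.000988), a level 1.27-fold lower with the empty vector. It was called higher when library 9, 10 or 12 was left out in place of library 11 (1.67, 1.66 and 1.68; edgeR adjusted p = 0.0321, 0.0355 and 0.0273).

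Nr4a3, also called Nor1, was barely detected. It had 1, 1, 84 and 2 reads in untreated empty-vector libraries 9 to 12, against 2, 5, 1 and 1 reads in untreated CLIC4 libraries. With H2O2 it had 2, 2, 0 and 2 reads in empty-vector libraries, against 1, 1, 0 and 1 reads in CLIC4 libraries. The 15 libraries other than library 11 held 22 of its reads in sum, and the groups overlapped. It was not tested; with no filter on low counts it was called higher in untreated empty-vector cells (log2 change 3.58, SE 1.27, edgeR adjusted p = 0.0454), a value that library 11 carries.

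Ier3 was the abundant gene of the group. Untreated empty-vector libraries had 68.9, 70.0, 765 and 82.5 CPM, against 32.7, 38.7, 34.4 and 35.3 CPM in untreated CLIC4 libraries. With H2O2 there were 80.1, 69.5, 86.2 and 66.9 CPM in empty-vector libraries, against 38.3, 36.6, 34.8 and 37.5 CPM in CLIC4 libraries. At 1638 reads or more in each library, counting error is small, and the vectors did not overlap. Ier3 rose by a log2 change of 2.81 (SE 0.656, edgeR adjusted p = 0.0026) with 16 libraries and 1.07 (SE 0.0885, adjusted p = 4.54e-08), or 2.09-fold, without library 11.

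Arc had 2.28, 2.30, 365 and 2.14 CPM in untreated empty-vector libraries, against 1.45, 1.60, 1.47 and 1.55 CPM in untreated CLIC4 libraries. Its H2O2-treated libraries had 1.92, 1.78, 2.40 and 1.96 CPM with the empty vector, against 1.39, 1.5, 1.19 and 1.51 CPM with the CLIC4 lentivirus. Outside library 11 the vectors differed little, yet without overlap within either treatment. The log2 change in untreated cells was 5.94 (SE 1.51, edgeR adjusted p = 0.00453) with 16 libraries and 0.56 (SE 0.128, adjusted p = 0.000565), or 1.48-fold, without library 11, so 1 library set most of its size. With 16 libraries the call was lost when only the untreated groups were fitted (5.95, edgeR adjusted p = 0.0577), and with limma on log2(FPKM + 1) (1.66, adjusted p = 0.159; 0.246 without a filter) and log2(FPKM + 0.1) (2.18, adjusted p = 0.119). The 5 neuron markers, nearly all Map2, summed to 4.50 to 5.56 CPM in empty-vector libraries other than 11 and to 60.8 to 68.0 CPM in CLIC4 libraries, while Rbfox3, Snap25 and Syt1 averaged at most 0.204 CPM in any group; their part in the level of Arc was not tested.

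**Figure D2:**
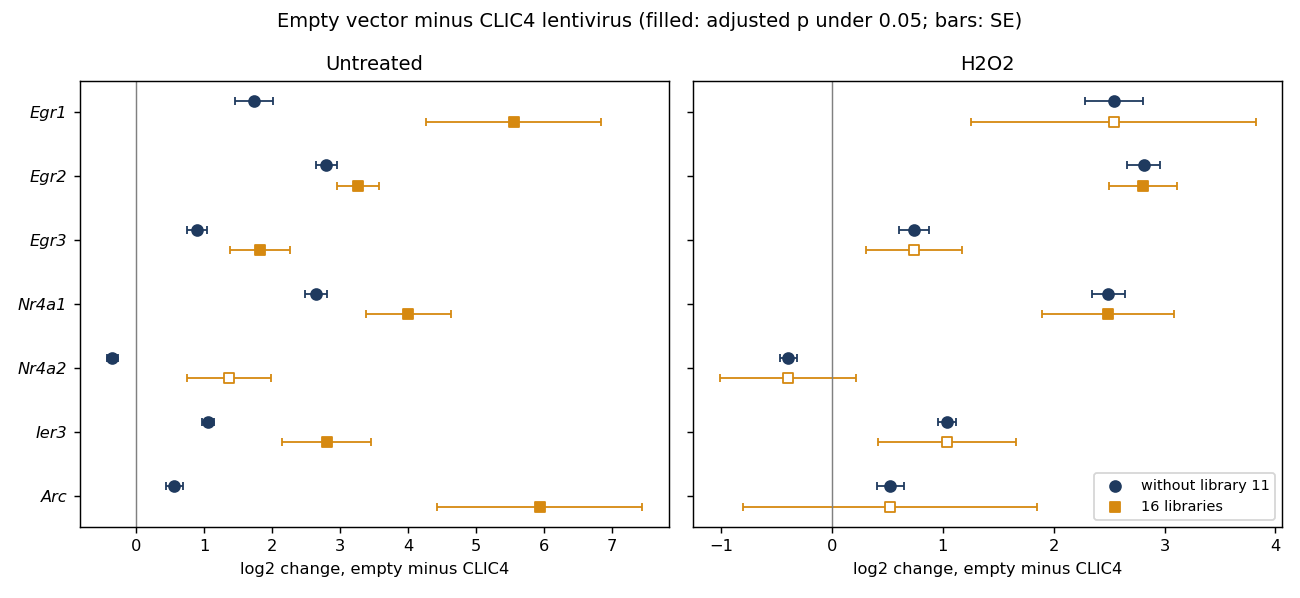
Log2 change, empty vector minus CLIC4 lentivirus, of the 7 tested genes in untreated (left) and H2O2-treated cells (right), from edgeR fits with 16 libraries (squares) and without library 11 (circles). Bars are standard errors and filled symbols have an adjusted p under 0.05. Without library 11 all 7 genes are called in both panels, with Nr4a2 alone below 0; with it, 6 are called in untreated and 2 in H2O2-treated cells.

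In H2O2-treated cells, none of the compared libraries is library 11, yet it entered the shared estimate of the spread. With 16 libraries 2 of the 7 genes were called higher with the empty vector, Egr2 (log2 change 2.81, SE 0.305, edgeR adjusted p = 3.70e-06) and Nr4a1 (2.49, SE 0.595, adjusted p = 0.00352), beside 22.1% higher and 20% lower of all genes. Without library 11, 6 were higher and Nr4a2 was lower, beside 36.6% higher and 37.2% lower. The changes themselves hardly moved. Egr1 had a log2 change of 2.54 in both fits, with an SE of 1.28 with 16 libraries (edgeR adjusted p = 0.131) and 0.260 without library 11 (adjusted p = 3.04e-08). For Ier3 the change was 1.04 in both, with adjusted p = 0.204 and 2.56e-08 by edgeR. Egr3 changed by 0.74 in both (edgeR adjusted p = 0.195, and 5.24e-05 without library 11), Arc by 0.53 (0.791, and 0.000599) and Nr4a2 by -0.39 (0.656, and 0.000129). In all 7 genes the H2O2-treated vectors did not overlap. How many of all genes lacked overlap, here or in the other comparisons, was not counted, so this is not read as a trait of the 7. A fit of the H2O2-treated groups alone, which leaves library 11 out as well, called all 7 in the same directions, beside 37.1% higher and 38% lower of 13963 genes.

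Set side by side without library 11, the sizes in H2O2-treated and untreated cells were 2.81 and 2.80 for Egr2, 2.49 and 2.64 for Nr4a1, 1.04 and 1.07 for Ier3, 0.74 and 0.89 for Egr3, 0.53 and 0.56 for Arc, and -0.39 and -0.35 for Nr4a2. Egr1 had the widest gap, 2.54 in treated and 1.73 in untreated cells. The test of that gap, the difference of the H2O2 responses between the vectors, gave a log2 value of 0.81 (SE 0.401, unadjusted p = 0.0576, edgeR adjusted p = 0.323).

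The second comparison was of H2O2-treated with untreated cells carrying the same vector. In empty-vector cells no gene of the 7 was called by edgeR. With 16 libraries 0% of all genes were called, and all 7 had negative log2 changes, between -5.53 (Arc, SE 1.47, adjusted p = 0.339) and -0.49 (Egr2, SE 0.272, adjusted p = 0.366); 5 of the 7 had an unadjusted p under 0.05, as had 2120 of all genes. DESeq2 gave an adjusted p to 1 of the 7 and did not call it; without its outlier cutoff, it called Arc (-5.61, adjusted p = 0.00233) and Egr1 (-3.46, adjusted p = 0.031) lower, beside 1.05% of all genes called lower in that setting. Without library 11 these values were gone, and log2 changes lay between -0.15 and 0.45. Of all genes 0.24% were called, and 1994 of 14602 had an unadjusted p under 0.05, against 0 of the 7. Egr1 was then the only one whose groups did not overlap, with 0.565 to 0.838 CPM in H2O2-treated and 0.446 to 0.558 CPM in untreated libraries (log2 change 0.45, SE 0.226, unadjusted p = 0.0631, edgeR adjusted p = 0.401).

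In CLIC4 lentivirus cells the 7 genes changed by log2 values between -0.36 (Egr1, SE 1.46) and 0.19 (Egr3, SE 0.439) with 16 libraries, with edgeR adjusted p = 1 for each. None had an unadjusted p under 0.05, nor did any without library 11, where the values ran from -0.36 to 0.20. Over all genes 0% were called in either fit, with 255 genes at an unadjusted p under 0.05 with 16 libraries and 2135 without library 11. DESeq2 without its outlier cutoff called 0 of the 7. The treated and untreated libraries overlapped for every gene.

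The difference of the H2O2 responses, empty vector minus CLIC4 lentivirus, was not called by edgeR for any of the 7. With 16 libraries the values were all negative, from -5.41 (Arc, SE 1.91, unadjusted p = 0.0134) to -0.46 (Egr2, SE 0.420). Of the 7, Arc alone had an unadjusted p under 0.05, as had 859 of all 14445 genes. By adjusted p, 0% of all genes were called. Without library 11 the values of the 7 ran from -0.15 (Nr4a1, SE 0.227) to 0.81 (Egr1). An unadjusted p under 0.05 was then found for 0 of the 7 and for 2391 of 14602 genes, and 0.192% of all genes were called. DESeq2 gave an adjusted p to none of the 7, and without its outlier cutoff to 1, which it did not call. A p that misses the threshold does not show that responses were equal: the SE without library 11 was between 0.114 (Nr4a2) and 0.401 (Egr1). All libraries were lysed after 24 h, so any change at earlier times after H2O2 was not measured.

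**Figure D3:**
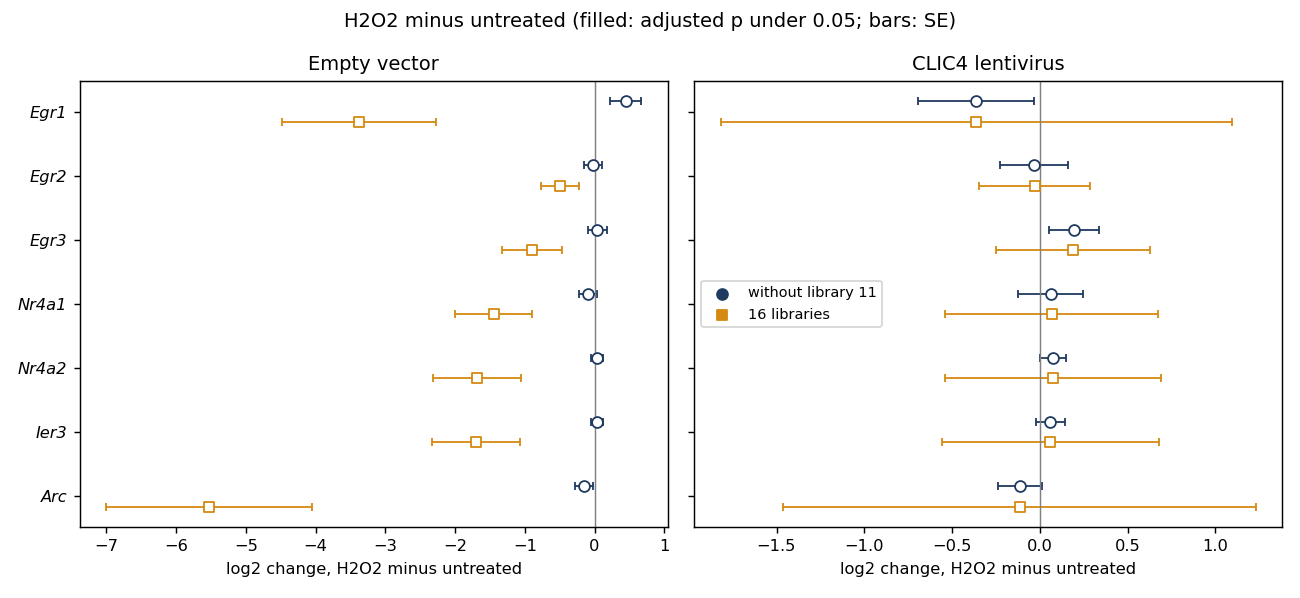
Log2 change, H2O2 minus untreated, of the 7 tested genes in cells with the empty vector (left) and the CLIC4 lentivirus (right), from edgeR fits with 16 libraries (squares) and without library 11 (circles). Bars are standard errors, open symbols were not called, and the panels differ in scale. On the left the squares lie between -5.53 and -0.49 and the circles between -0.15 and 0.45; on the right both lie between -0.36 and 0.20.

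Library 11 carried by far the highest level of each of the 8 genes. Set against the mean of libraries 9, 10 and 12, Arc was 163-fold higher (365 CPM against 2.24 CPM; exact 95% counting interval 147 to 181), the 47th largest ratio of 14445 genes. Egr1 was 54.1-fold higher (26.7 against 0.493 CPM; 43.1 to 68.1), and Nr4a3 90.9-fold (84 reads against 4 in 3 libraries; 34.7 to 346). Ier3 was 10.4-fold higher, Nr4a2 10.2-fold, Nr4a1 7.26-fold, Egr3 4.67-fold and Egr2 2.56-fold. In TMM-scaled CPM all 7 tested genes were thus at least 2-fold higher in library 11, as were 18.2% of all 14445 genes. This depends on the scaling of library 11: on the authors' FPKM scale Egr2 did not reach 2-fold (1.68 against 0.94 to 1.26). The median ratio was 10.2 for the 7 and 0.897 over all genes. This is 1 library, so these ratios were not tested, and the intervals cover counting error only.

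Within the families the order in library 11 was not that of the vector difference. Egr2, which differed most between vectors without library 11, had the lowest ratio, and Arc, which differed by 1.48-fold, had the highest. On the authors' FPKM scale the gap was smaller than in CPM for every tested gene. Egr2 stood at 1.68 FPKM in library 11 and 0.94 to 1.26 in libraries 9, 10 and 12. Arc stood at 92.5 FPKM in library 11 (rank 1044 of 25372 genes) and 0.78 to 0.83 in the other 3. For Ier3 these were 599.5 FPKM (rank 201) and 77.6 to 93.1, for Nr4a2 17.4 and 1.76 to 2.23, for Nr4a1 11.2 and 1.88 to 2.07, for Egr1 6.57 and 0.16 to 0.20, and for Egr3 3.14 and 0.91 to 1.38.

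**Figure D4:**
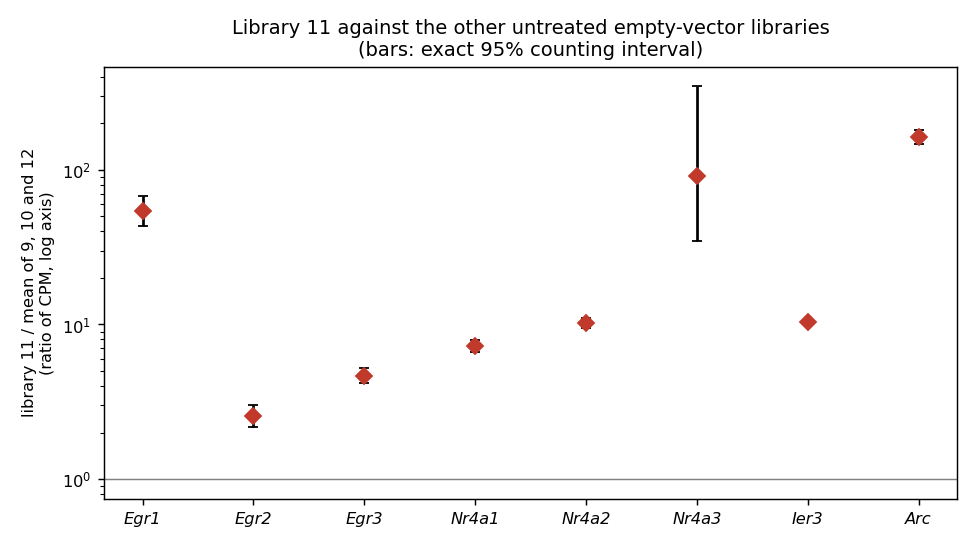
Ratio of library 11 to the mean of libraries 9, 10 and 12, in TMM-scaled CPM on a log axis, for each of the 8 genes. Bars are exact 95% counting intervals and the line marks a ratio of 1. The ratios run from 2.56 (Egr2) to 163 (Arc), and the interval of Nr4a3 is wide because it had 4 reads in the other 3 libraries.

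Other cell types were looked for with marker lists. In library 11 the summed level of 8 mammary epithelial markers was 1394 CPM, against 940 to 979 CPM in libraries 9, 10 and 12. Krt19 (626 CPM against a mean of 166) and Krt18 (384 against 186) were higher there, while Krt8 was lower (370 against 614). Of 4 immune markers in the table, Cd68 was present throughout, summed levels were 369 CPM in library 11 and 223 to 252 CPM in the other 3, and Ptprc and Adgre1 were at 0 in all 4. That sum is mostly Cd68 (368 CPM against a mean of 232), while Itgam was lower in library 11 (0.906 against 4.90). Summed endothelial markers stood at 7.76 CPM in library 11 and 3.78 to 4.68 CPM in the other 3, fibroblast markers at 21.9 and 18.5 to 19.6 CPM, and neuron markers at 3.62 and 4.50 to 5.01 CPM, with Rbfox3, Snap25 and Syt1 at 0 in library 11. Tubb3, another of the neuron markers, had 1.27 CPM in library 11 and a mean of 0.0176 CPM in the other 3. Their part in the levels of the 8 genes, and that of the mitochondrial ribosomal RNA, was not tested.

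Between the vectors, markers of other cell types moved as well. In untreated empty-vector libraries other than 11, immune markers summed to 223 to 252 CPM, against 77.5 to 82.9 CPM in untreated CLIC4 libraries, with Cd68 the main one. Endothelial markers, nearly all Cdh5, summed to 3.78 to 4.68 CPM in the empty-vector and 79.9 to 85.2 CPM in the CLIC4 libraries, with Kdr and Tek at most 0.0859 CPM on average in either. Fibroblast markers summed to 18.5 to 19.6 CPM with the empty vector and 13.6 to 15.0 CPM with the CLIC4 lentivirus. That sum is mostly Pdgfra (means of 16.0 and 4.29 CPM), while Col1a1 (2.52 and 7.82 CPM), Dcn (0.113 and 1.97 CPM) and Lum (0 and 0.240 CPM) had lower means with the empty vector. Their part in the vector difference of the 8 genes was not tested.

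In untreated cells 38 other immediate early genes were tested, and with 16 libraries 21 had a higher and 4 a lower level with the empty vector than with the CLIC4 lentivirus, at a median log2 change of 1.30. Without library 11, 22 were higher and 10 lower, with a median of 0.31. In H2O2-treated cells 8 were higher and 3 lower with 16 libraries, and 21 higher and 8 lower without library 11, with a median of 0.22 in both. Over all genes, 29% were higher and 24.3% lower in untreated cells with 16 libraries, and 37% and 37.3% without library 11; in H2O2-treated cells these shares were 22.1% and 20%, and 36.6% and 37.2%. The 8 of 38 called higher in H2O2-treated cells with 16 libraries are thus near the share over all genes. Those with the smallest adjusted p follow. Fosl1, an AP-1 subunit, averaged 40.8 ± 1.85 CPM in untreated empty-vector libraries without library 11 (SD, n = 3) and 4.11 ± 0.406 CPM in CLIC4 libraries (SD, n = 4), a log2 change of 3.31 (edgeR adjusted p = 9.32e-15). Dusp6, a phosphatase that switches off ERK, averaged 89.4 ± 4.53 and 23.5 ± 1.76 CPM (1.92, edgeR adjusted p = 6.04e-15). Plk3, a stress-responsive kinase, had 44.0 ± 1.95 and 10.8 ± 0.624 CPM (2.03, edgeR adjusted p = 4.79e-16), and Zfp36, which speeds the decay of AU-rich transcripts, had 25.3 ± 1.59 and 11.5 ± 0.300 CPM (1.14, edgeR adjusted p = 3.76e-12). Dusp2, also a MAP kinase phosphatase, was called with 16 libraries in untreated (0.97) and H2O2-treated cells (0.98), and Ccn2, a matricellular protein, was lower in H2O2-treated empty-vector cells (-1.21, edgeR adjusted p = 0.000106).

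In TMM-scaled CPM, library 11 was at least 2-fold above libraries 9, 10 and 12 for 23 of these 38 genes, beside 18.2% of all genes. It was at least 2-fold below for 2 of them, a share that was not counted over all genes. The median ratio was 3.33 for the 38 and 0.897 over all genes. The largest ratios of the list, chosen here after their values were seen, were 56.7 for Fos and 53.1 for Ccn1. Fosl1 had a ratio of 0.675, so it was not raised in library 11 as the 8 genes were.

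**Figure D5:**
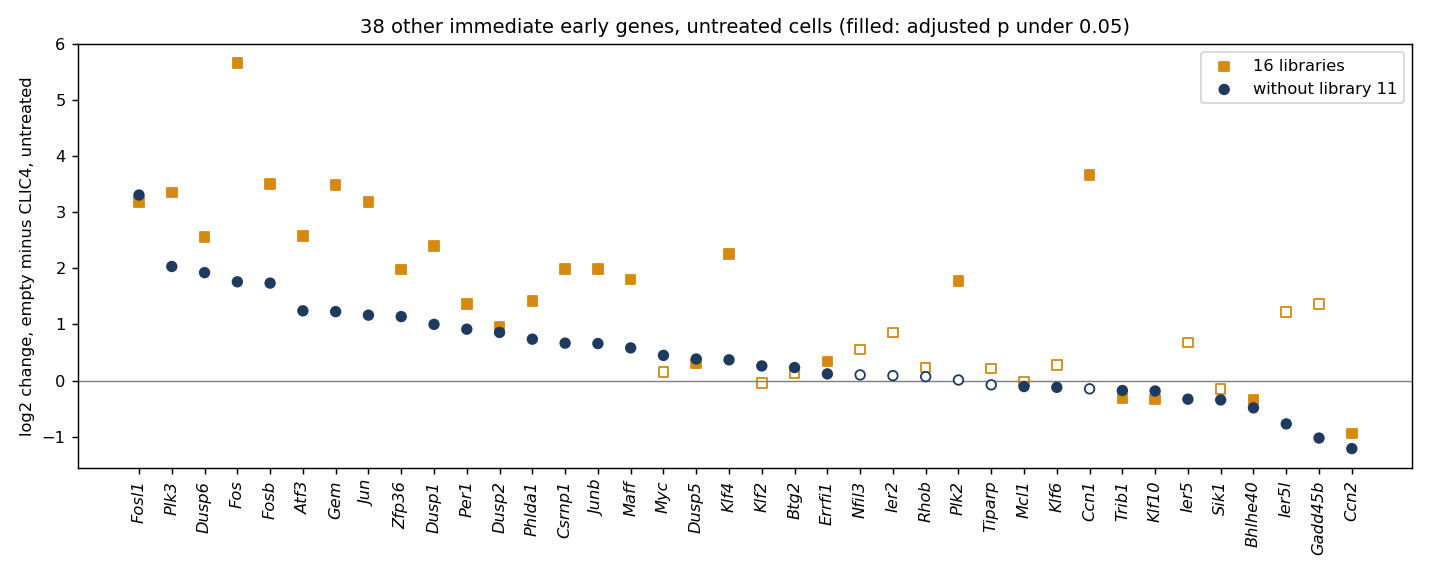
Log2 change, empty vector minus CLIC4 lentivirus in untreated cells, of 38 other immediate early genes, ordered by the value without library 11. Squares are edgeR fits with 16 libraries, circles are fits without library 11, and filled symbols have an adjusted p under 0.05. The 38 genes run from 3.31 (Fosl1) to -1.21 (Ccn2) without library 11, and many squares lie well above their circles.

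Partner proteins and upstream factors of the 8 genes were listed too. Both measured NAB corepressors of the Egr proteins were called higher in empty-vector cells: Nab1 averaged 86.2 ± 3.26 CPM in untreated empty-vector libraries without library 11 (SD, n = 3) and 64.7 ± 0.351 CPM in CLIC4 libraries (SD, n = 4; log2 change 0.41, edgeR adjusted p = 3.07e-09), and Nab2 36.3 ± 1.30 and 24.4 ± 0.935 CPM (0.57, edgeR adjusted p = 1.52e-10). Both were also higher in H2O2-treated cells (0.41 and 0.55 without library 11). Of the 2 measured retinoid X receptors, Rxra was lower, with 78.2 ± 2.57 and 135.8 ± 1.55 CPM (-0.80, edgeR adjusted p = 2.68e-13; -0.93 in H2O2-treated cells), while Rxrb differed by 0.10 (edgeR adjusted p = 0.041) without library 11 in untreated cells. Of the 4 genes listed for neuronal activity, 2 passed the filter: Homer1, a synaptic scaffold, and Bdnf, a neurotrophin, were both higher without library 11 (0.72 and 0.50 in untreated cells, edgeR adjusted p = 2.22e-09 and 1.11e-05; 0.62 and 0.59 in H2O2-treated cells). With 16 libraries Bdnf was not called in H2O2-treated cells (0.59, edgeR adjusted p = 0.179).

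Of 6 genes of SRF and its cofactors, 1 was called higher and 1 lower with the empty vector in untreated cells, and 3 and 2 without library 11. Mrtfa, a coactivator of SRF, was the one with the smallest adjusted p (43.2 ± 0.606 CPM in 3 empty-vector and 24.4 ± 1.59 CPM in 4 CLIC4 libraries, log2 change 0.83, edgeR adjusted p = 1.14e-10), while Srf itself differed by -0.15 (adjusted p = 0.0116). Of 9 CREB and MEF2 regulators, 1 was higher and 2 lower, and 3 and 3 without library 11. Mef2c, a MADS-box factor, was much lower, at 2.82 ± 0.119 CPM in 3 empty-vector and 77.0 ± 3.21 CPM in 4 CLIC4 libraries (-4.77, edgeR adjusted p = 2.60e-21). Of 15 genes of the MAP kinase pathway, 4 were higher and 3 lower, and 6 and 6 without library 11. Without library 11, Grb2 (0.33) was among those called higher, and Nras (-0.28) and Hras (-0.39) among those called lower, with adjusted p between 2.46e-09 and 1.56e-07 by edgeR. The medians of these 3 lists were 0.051, 0.00014 and 0.049 with 16 libraries and 0.018, -0.056 and 0.046 without library 11. In H2O2-treated cells the calls, higher and lower, were 0 and 2 for SRF and cofactors, 1 and 3 for CREB and MEF2 regulators, and 3 and 1 for the MAP kinase pathway with 16 libraries. Without library 11 they were 2 and 4, 3 and 5, and 4 and 5. Set against the shares over all genes given above, these counts are not read as a result about the lists.

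Under H2O2, 1 of the 38 other immediate early genes, Myc, was called without library 11. It had 974 ± 21.2 CPM in treated and 828 ± 23.4 CPM in untreated empty-vector libraries (SD, n = 4 and n = 3), a log2 change of 0.23 (edgeR adjusted p = 0.0352). The log2 change of Myc in CLIC4 lentivirus cells was 0.040. The difference of its responses between the vectors was not called (0.19, edgeR adjusted p = 0.0974). Elk4, a ternary complex factor, was lower, with 49.0 ± 2.68 and 56.9 ± 1.33 CPM (-0.22, edgeR adjusted p = 0.047). In CLIC4 lentivirus cells Elk4 changed by 0.095, and the difference of its responses was called (-0.31, edgeR adjusted p = 0.0477). None of the 8 genes was among those called.

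Finally, the genes whose levels over the 15 libraries ran closest to those of the 3 tested members with the highest mean CPM were listed, by the root mean square (RMS) difference of log2 CPM after centring each gene. Ier3 was closest to Krt19, a keratin (0.0541), Slc2a1, a glucose transporter (0.0564), and Lif, a cytokine (0.0658), and 29 of 14595 genes lay within 0.1 of it. Nr4a2 was closest to Mepce (0.0695), Vegfb, a growth factor (0.0736), and Retsat, an enzyme of retinol metabolism (0.0788), with 111 genes within 0.1. Egr3 had no gene within 0.1; Phldb3 (0.167), Lamb2, a laminin chain (0.171), and Copz2, a coatomer subunit (0.178), were its nearest. In library 11, which this did not use, Ier3 and its nearest genes parted, with ratios to libraries 9, 10 and 12 of 10.4 for Ier3, 3.77 for Krt19, 2.43 for Slc2a1 and 0.304 for Lif. The 15 libraries share 4 groups, so this likeness is a description.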

How the data were processed

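RNA from 6DT1 cells was extracted with a Qiagen RNeasy kit and sequenced on Illumina libraries, per the labels' protocols. Reads were processed with cutadapt, STAR and RSEM on mm10, per the submitters' processing notes; for versions, annotation and strand, the sources used here give nothing. Both deposited tables are the authors': they hold counts for 25745 genes, whole numbers that may be rounded RSEM estimates, and FPKM, which the authors scaled to gene length and depth, for 25372 genes.

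The members and lists, and the tests, were chosen with earlier results of these data known. Groups came from the sample titles. With edgeR 4.0.16 under R 4.3.3, a quasi-likelihood model (robust, TMM, filterByExpr) was fitted to all genes with a coefficient for each of 4 groups, once with 16 libraries and once without library 11, and adjusted by Benjamini-Hochberg over all genes tested; SE was obtained as the absolute log2 change over the root of the F value. A gene was called at an adjusted p under 0.05. All 8 members are described; from each list at most 4 genes are named per comparison and fit, those called with the smallest adjusted p, or else those with the highest mean CPM. One gene that this rule names is not reported here. Counting intervals are exact at 95% and cover counting error only. The biological coefficient of variation was 23.1% with library 11 and 5.28% without it. The closest pair of libraries in a group differed by a chi-square of 5.05 per degree of freedom, more than sampling noise. Alternatives tried were DESeq2 1.42.0, RLE size factors, a minimum of 1 CPM in 4 libraries, no filter, the compared groups alone, voom with library weights and log2(FPKM + 1) or log2(FPKM + 0.1) with limma 3.58.1 (genes of at least 0.5 FPKM in 4 libraries, or no filter), and leaving out each library. DESeq2 without its outlier cutoff and the compared groups alone without library 11 were added after seeing the data. On log2(FPKM + pseudocount), changes of low genes are understated. Gene positions and exons came from GENCODE vM21 by symbol. Figures were drawn with matplotlib 3.10.9.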

Additional observations from a re-analysis of the deposited data

Results flagged for a closer look

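In 10 of 32 sets of 4 libraries, 1 for each gene and group, the highest or lowest library had a gap to the next library, divided by the range, above Dixon's 95% critical value. For 8 of them the library was library 11, the highest of the untreated empty-vector libraries: 0.996 for Egr1, 0.966 for Egr2, 0.978 for Egr3, 0.984 for Nr4a1, 0.975 for Nr4a2, 0.991 for Nr4a3, 0.981 for Ier3 and 1.00 for Arc. The other 2 concern Nr4a3, where a library with 0 reads stood below libraries with 1 or 2 reads: library 15 of the H2O2-treated empty-vector cells (0.953) and library 7 of the H2O2-treated CLIC4 lentivirus cells (0.845). The 8 flags of library 11 all rest on that 1 library, and about 1 set in 20 would be flagged by chance. The cause was not tested.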

How the results depend on the processing

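No paired analysis was possible because the library numbers run from 1 to 16 and no number is shared by groups. Counts of genes called moved as follows, of 7. In untreated cells, empty vector minus CLIC4 lentivirus, edgeR called 6 (53.3% of all genes called in either direction). DESeq2 called 1 (55.7%), the 1 gene to which its outlier cutoff left an adjusted p, and 7 without that cutoff (58.4%). With the compared groups alone 4 were called (32%). Each FPKM setting also called 4. These were log2(FPKM + 1) (45.8%) and log2(FPKM + 0.1) (45%), with 6 genes tested, and log2(FPKM + 1) without a filter (24.8%), with 8 tested. Leaving out each library gave 6 to 7. In H2O2-treated cells 2 were called, against 7 with the compared groups alone (75.1% of all genes called in either direction), 7 with voom (75.6%), which gave library 11 a weight of 0.00767 and the others 0.614 to 2.11, 1 with DESeq2 (46.1%) and 3 without its cutoff (46.6%); leaving out each library gave 2 to 7. For H2O2 minus untreated in empty-vector cells, 0 became 2 with DESeq2 without its cutoff (1.55% of all genes called in either direction).

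Directions reversed as follows; the cause was not tested. Nr4a2 in untreated cells was -0.36 with the untreated groups alone without library 11 and -0.33 with voom, and ran from -0.35 to 1.68 when each library was left out. For H2O2 minus untreated in empty-vector cells, the same 2 settings gave 0.050 and 0.090 for Ier3, 0.047 and 0.016 for Nr4a2, 0.056 and 0.036 for Egr3, and 0.46 and 0.44 for Egr1; leaving out each library gave -2.01 to 0.037, -2.0 to 0.033, -1.11 to 0.043 and -3.76 to 0.45, with library 11 the one that reversed each. In CLIC4 lentivirus cells, Nr4a1 ran from -0.046 to 0.20 and Egr2 from -0.12 to 0.081 over the libraries left out, and Egr2 was 0.0011 on log2(FPKM + 1) with or without a filter. The difference of responses was 0.034 for Ier3, 0.054 for Egr2 and 0.84 for Egr1 with voom; over the libraries left out, Egr2 ran from -0.59 to 0.014 and Egr1 from -3.40 to 0.81.

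RLE size factors, no filter and 1 CPM in 4 libraries changed no call or direction of the 7 genes; the last left Egr1 out. Egr1 rests on 4 to 51 reads and Nr4a3 on 0 to 5 outside library 11, so small changes of either were not detectable.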
